A study of Mus musculus with 6 samples.

Results

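The genes examined here encode the constitutive proteasome and its regulators in cultured mouse microglia. They were taken by name, as every symbol of the count table that consists of Psma, Psmb, Psmc, Psmd, Psme, Psmf or Psmg and a number, leaving out the interferon-inducible subunits Psmb8, Psmb9 and Psmb10, which gave 45 of the 41079 genes listed. RNA was sequenced in 6 libraries of primary microglia from C57Bl/6N pups 1 to 3 days old, with 3 libraries from control cultures in serum-free medium and 3 from the optimized cultures, which the deposited labels call stimulated. The optimized cultures received human TGFbeta, human IL34 and CX3CL1 at 100 ng/mL each, and the study's methods add cholesterol, insulin-transferrin-selenium and a collagen IV coating, which the labels do not name. All cells came from pooled brains grown in mixed glial flasks with L-929 conditioned medium and were shaken off before treatment, so both groups share these steps. No library received a single supplement, so the effects of the supplements cannot be told apart.

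The proteasome degrades proteins that carry ubiquitin chains. Its barrel, the 20S core, is built of outer alpha rings, which gate the entrance, and inner beta rings, which hold the proteolytic sites. The 19S regulatory particle recognises the substrate, removes ubiquitin and unfolds the chain with a ring of ATPases, whereas alternative caps such as the PSME1 and PSME2 complex open the core without ubiquitin or ATP. In immune cells, including microglia, PSME1, PSME2 and the inducible subunits are known for shaping the peptides presented on MHC class I molecules.

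Proteasome subunits are known to be produced in concert, so the sequence upstream of their genes is shown first. RefSeq windows of 250 bases before a transcription start were held for 37 of the 45 genes, in 40 windows. The letters CCGGAAG, a site read by ETS family transcription factors, were found on either strand in 13 of the 40 windows (32.5%), against 6.91% of 32851 windows of all genes. These windows belonged to 12 genes, namely Psma6, Psmc1, Psmc2, Psmc6, Psmd2, Psmd4, Psmd6, Psmd11, Psmd12, Psme3, Psme4 and Psmg1. The site was held by 3 of 5 ATPase genes with a window and by 5 of 9 genes of the other 19S subunits, but by none of 5 beta ring genes. A match of these letters is a description of the sequence and not a measured binding site. The following 6 stretches are shown because they include both genes of this set that passed the adjusted threshold of the edgeR test described below, Psma6 and Psmd11, and both activators that hold the site, Psme3 and Psme4. Each is given 5′ to 3′ on the strand that reads CCGGAAG, which is in capitals, with its position on GRCm39.
Psma6 (chr12:55445467-55445495, plus strand): agagccaccacCCGGAAGcccgcggaccg
Psmc1 (chr12:100076422-100076450, minus strand): aatcgccaccgCCGGAAGtgcatccacca
Psmc2 (chr5:21991710-21991738, minus strand): tctcttccccaCCGGAAGtagctccgcgc
Psmd11 (chr11:80319419-80319440, minus strand): acacCCGGAAGacccgccctcg
Psme3 (chr11:101206921-101206949, plus strand): gggcacaaggcCCGGAAGctccgacagcc
Psme4 (chr11:30721711-30721739, plus strand): gtggccccgccCCGGAAGtgacttgaggc

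The site ended between 5 and 126 bases before the RefSeq start. In the GENCODE annotation, the printed stretches of Psmc1, Psmc2, Psmd11 and Psme3 lay wholly in an annotated exon, that of Psme4 with 15 of its 29 bases and that of Psma6 within its gene outside exons. Other motifs were nearer to their share of all windows. The antioxidant response element TGACNNNGC was found in 5 of 40 windows (12.5% against 10.2%), the interferon-stimulated response element in 3 (7.5% against 2.98%) and the CCAAT box CCAAT in 13 (32.5% against 33.8%), each on either strand and without regard to overlap.

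Counts of reads per gene summed to between 20628148 and 27261839 per library. Optimized library 1 stood apart from the other libraries of its group for the proteasome genes, and counts without it are given with the values by library. Microglial markers (9 of 10 listed) summed to 7025 to 7237 CPM (counts scaled to the library total with TMM factors) in controls and 12704 to 15618 CPM in optimized libraries. Astrocyte markers (4 of 5 listed) summed to 27.2 to 29.0 CPM against 13.2 to 16.6 CPM, a difference that came mainly from Aldh1l1 (mean 16.5 against 4.64 CPM), while Gfap had a mean of 4.18 against 4.68 CPM. Sums were, for oligodendrocyte markers, 125 to 140 CPM against 156 to 190 CPM and, for neuronal markers, 3.07 to 4.63 CPM against 5.30 to 6.29 CPM. The neuronal marker Snap25 had 0 or 1 count and the endothelial marker Cldn5 0 to 2 counts per library. Fibroblast markers reached 147 CPM in optimized library 3 and lay between 28.6 and 45.7 CPM elsewhere, and the sum for precursors and pericytes was at most 43.1 CPM in controls and at least 438 CPM in optimized libraries, most of it from Cspg4. The part of other cells in the results below was not tested, and in bulk RNA fewer cells of a type and less RNA per cell cannot be told apart.

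To determine whether the optimized conditions altered the proteasome transcripts, counts were compared with the quasi-likelihood test of edgeR, with Benjamini-Hochberg adjustment over all 14618 genes tested and a threshold of 0.05. Of the 45 genes, 44 passed the filter on low counts. Psmb11, the thymus-specific beta subunit, had 0 counts in all 6 libraries, and Psma8, the alpha subunit known from testis, had the lowest counts of the genes tested, down to 27 in a library. At this threshold, 11 of the 44 were lower and 0 were higher in the optimized cultures, where 15.2% of all genes tested were lower and 14.7% higher (29.8% in either direction). At an unadjusted p-value under 0.05 the edgeR test gave 21 lower and 1 higher (19.8% and 19.6% of all genes), and DESeq2 gave 15 lower and 0 higher at the adjusted threshold (15.7% and 15.3% of all genes). The log2 fold change was negative for 39 of the 44 genes, against 49.1% of all genes, and its median was −0.26 against 0.01 over all genes. Every optimized library lay below every control library in 20 of the 44 genes (22.5% of all genes did so) and above in 1, Psmd1 (21.4% of all genes).

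The largest decreases were those of a 19S chaperone and of one pair of activators, and the log2 fold changes of the ring and lid subunits were smaller. The plot of fold changes by role shows this order.

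**Figure D1:**
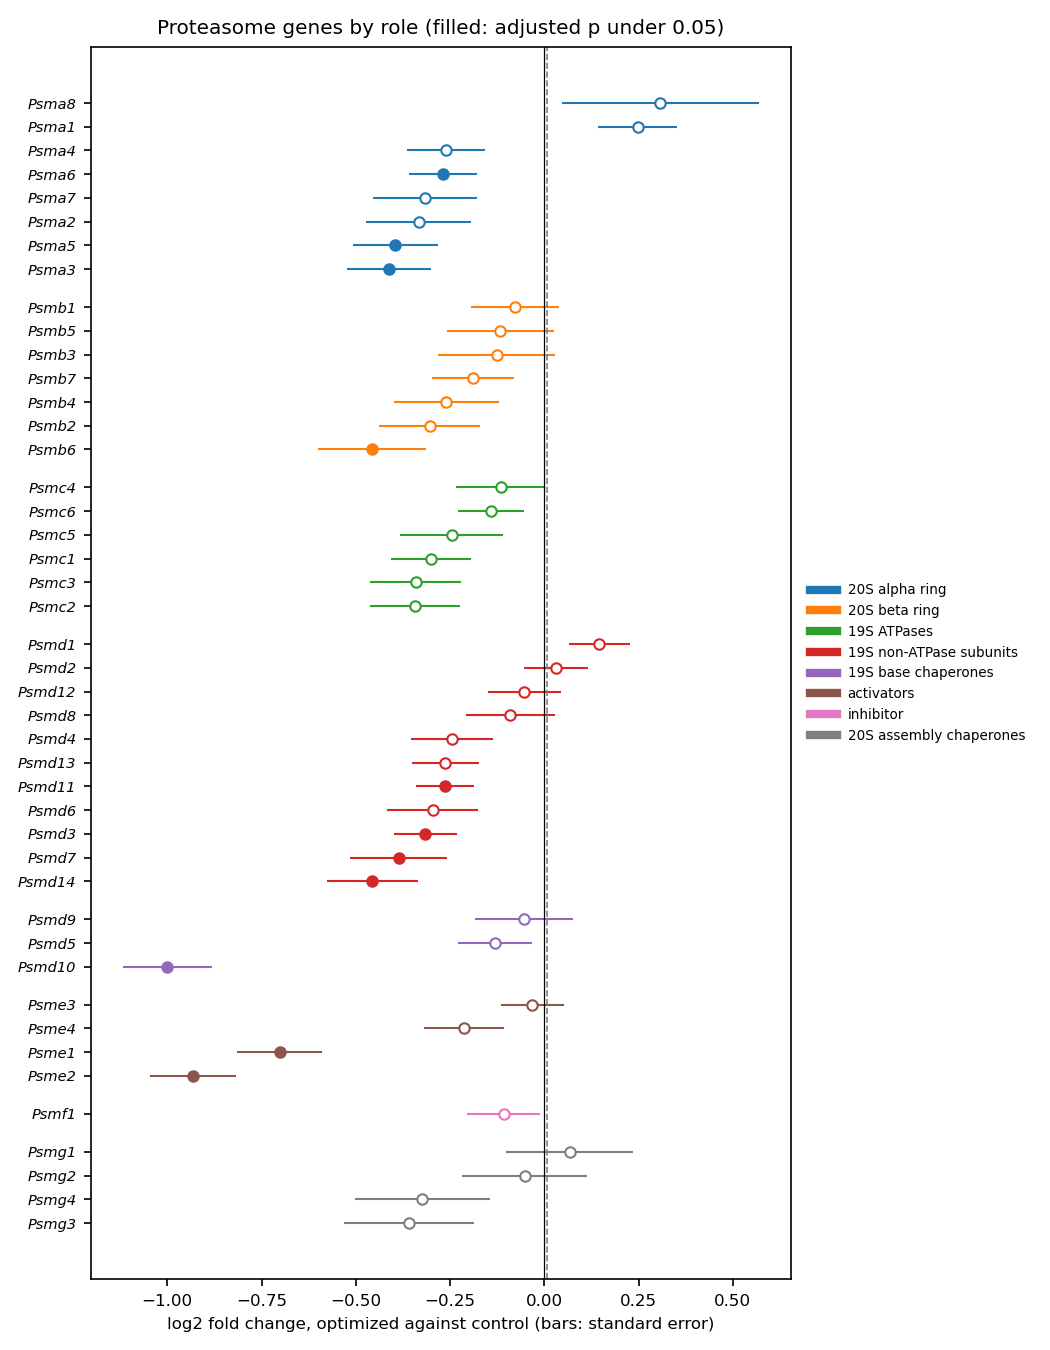
Log2 fold change between optimized and control cultures (x axis) for the 44 proteasome genes tested, grouped and coloured by role, with the standard error as a bar. Filled points have an adjusted p-value under 0.05 and the dashed line is the median of all genes (0.01). Psmd10, Psme2 and Psme1 lie farthest to the left (−1.0, −0.93 and −0.70), and 5 genes lie to the right of zero with open points.

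Psmd10 encodes gankyrin, a chaperone that holds the ATPase subunits during assembly of the 19S base. Its level was 40.9, 46.3 and 52.1 CPM in the control libraries and 20.6, 25.2 and 23.8 CPM in the optimized libraries. The groups did not overlap, and the log2 fold change was −1.0 ± 0.12 (SE, n = 3 per group, edgeR adjusted p = 0.000142). The other base chaperones did not pass the test, with a log2 fold change of −0.13 for Psmd5 (adjusted p = 0.363) and −0.05 for Psmd9 (adjusted p = 0.802). Psmd9 had 17.9, 19.05 and 21.3 CPM in controls and 16.4, 21.9 and 17.8 CPM in optimized libraries, and its groups overlapped. Psmd10 lies at chrX:139847687-139857477 (GRCm39, minus strand) and shares 66 exonic bases with Atg4a on the opposite strand. Atg4a, an autophagy protease with 0.898 times the mean count of Psmd10, also fell, by 0.81 on the log2 scale (adjusted p = 0.000623). The strand setting of the counting is not given in the sources used here, so reads in the shared bases cannot be assigned to either gene.

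The activators showed unequal changes. PSME1 and PSME2 form one ring-shaped cap, which interferon-gamma is known to induce, while PSME3 forms a nuclear cap of its own and PSME4 is a single large cap protein. Psme2 had 149, 153 and 173 CPM in controls and 70.1, 88.9 and 90.1 CPM in optimized libraries (log2 fold change −0.93 ± 0.11, SE, edgeR adjusted p = 0.000181). Psme1 had 165, 169.5 and 189.7 CPM against 91.0, 118 and 113 CPM (−0.70 ± 0.11, edgeR adjusted p = 0.00099). Both partners were therefore lower in every optimized library than in any control library. Psme3 had 78.4, 79.9 and 85.3 CPM against 74.4, 83.6 and 80.2 CPM, with a log2 fold change of −0.03 ± 0.08 (edgeR adjusted p = 0.819). Psme4 had 108, 107 and 94.8 CPM against 102, 80.4 and 84.4 CPM, with a log2 fold change of −0.21 ± 0.11 (edgeR adjusted p = 0.172). The libraries of the groups overlapped for Psme3 and Psme4.

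Within each library, the ratio of Psme2 to Psme3 per transcript length (FPKM) was 7.99, 8.06 and 8.57 in controls and 3.97, 4.48 and 4.73 in optimized cultures, a difference of −0.90 on the log2 scale. The ratio of Psme1 to Psme3 was 8.84, 8.95 and 9.37 against 5.15, 5.96 and 5.94, a difference of −0.68. The groups of libraries did not overlap for either ratio. The two-sided exact permutation test gave p = 0.1 for each, which is the smallest value that 3 libraries against 3 allow, and 0.12 after adjustment over the 6 ratios computed. The ratio of Psme4 to Psme3 overlapped between groups (difference −0.19, exact p = 0.3).

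Psme1 (chr14:55815190-55822034, plus strand) and Psme2 (chr14:55824895-55829173, minus strand) are neighbours in GRCm39, with 2860 bases between them. Psme2 has a near-identical copy, Psme2b, on chromosome 11, with 99.4% identity over 795 aligned bases and a mean count of 35.0% of that of Psme2. Psme2b was counted at 1148, 1513 and 1537 in controls and 579, 614 and 665 in optimized libraries (log2 fold change −0.97 ± 0.11, edgeR adjusted p = 0.000127). How reads were divided between Psme2 and its copy is uncertain, and with the counts of Psme2b added Psme2 remained lower. With at least 90% identity over at least 300 aligned bases, 15 of the 45 genes have such a copy or stretch in another transcript. Among the genes called lower, these are Psma3, Psma5, Psmb6, Psmd11, Psmd14, Psme1 and Psme2. The part of reads from copies other than Psme2b was not tested. Psme2 also shares 731 exonic bases with Rnf31 on the opposite strand, a gene with 0.346 times its mean count and a log2 fold change of −0.33 (adjusted p = 0.0164). The inhibitor Psmf1, which binds the core and blocks it, had 29.9, 28.2 and 30.9 CPM in controls and 25.2, 28.3 and 29.3 CPM in optimized libraries (log2 fold change −0.11 ± 0.10, edgeR adjusted p = 0.458).

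Among the 14 constitutive subunits of the 20S core, 4 were lower (15.2% of all genes). A negative log2 fold change was found in 13 (49.1% of all genes), and the median was −0.26. In the alpha ring, Psma3, Psma5 and Psma6 passed the test. Psma3 had 50.2, 58.9 and 64.6 CPM in controls and 39.6, 46.4 and 44.7 CPM in optimized libraries (log2 fold change −0.41 ± 0.11, edgeR adjusted p = 0.0197). Psma5 had 67.2, 81.6 and 84.7 CPM against 52.8, 61.6 and 63.2 CPM (−0.40 ± 0.11, edgeR adjusted p = 0.0242). Psma6 had 72.2, 82.8 and 81.8 CPM against 61.2, 68.5 and 66.9 CPM (−0.27 ± 0.09, edgeR adjusted p = 0.0493). In each of these genes the highest optimized library stayed under the lowest control library, with a narrow gap. Psma2, Psma4 and Psma7 had log2 fold changes between −0.33 and −0.26 and did not pass. Psma1 stood on the other side, with 116, 119.8 and 131 CPM in controls and 125, 161 and 149 CPM in optimized libraries (0.25 ± 0.11, edgeR adjusted p = 0.112), and its groups overlapped. The low-count Psma8 had 1.18, 1.39 and 1.57 CPM against 1.52, 1.79 and 1.84 CPM (0.31 ± 0.26, edgeR adjusted p = 0.428).

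In the beta ring, the subunit that passed the test was Psmb6, which carries the caspase-like site. It had 150.4, 154 and 177 CPM in controls and 92.2, 141 and 117 CPM in optimized libraries (log2 fold change −0.46 ± 0.14, edgeR adjusted p = 0.0363). The other catalytic subunits, Psmb5 with the chymotrypsin-like site and Psmb7 with the trypsin-like site, had log2 fold changes of −0.12 ± 0.14 (adjusted p = 0.597) and −0.19 ± 0.11 (adjusted p = 0.237). Whether the 3 catalytic subunits differed in their change was not tested. Psmb1 had the value nearest zero, with 112, 116 and 132 CPM against 95.4, 122 and 123 CPM (−0.08 ± 0.12, edgeR adjusted p = 0.677). Psmb5 shares 109 exonic bases with Mir686 on the same strand and Psmb7 2817 bases with Nek6 on the opposite strand, so the counts of both are uncertain. Nek6 had 1.37 times the mean count of Psmb7 and a log2 fold change of 0.95 (edgeR adjusted p = 6.45e-05).

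The inducible catalytic subunits, which replace Psmb5, Psmb6 and Psmb7 in the immunoproteasome, were set against their constitutive partners. The FPKM ratio of Psmb8 to Psmb5 was 1.30, 1.21 and 1.39 in controls and 1.10, 1.00 and 1.06 in optimized cultures. That of Psmb9 to Psmb6 was 0.213, 0.222 and 0.213 against 0.156, 0.151 and 0.156. That of Psmb10 to Psmb7 was 1.06, 1.10 and 1.11 against 0.515, 0.651 and 0.678. In all 3 pairs the ratio was lower in every optimized library than in any control library, by 0.30, 0.49 and 0.84 on the log2 scale, and each exact permutation test gave p = 0.1, the smallest this design allows (0.12 adjusted over the 6 ratios). Psmb9 shares 743 exonic bases with Tap1 on the opposite strand, which had 3.39 times its mean count and a log2 fold change of −0.89 (edgeR adjusted p = 4.08e-05). Psmb7 overlaps Nek6 and Psmb5 overlaps Mir686, as given above. Psmb5 also has a stretch of 351 aligned bases with 99.4% identity to Osgep, a gene with 45.1% of its mean count. The part of overlapping or shared reads in the 3 ratios was not tested.

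Of the 17 constitutive 19S subunits with a Psm symbol, 4 were lower (15.2% of all genes) and 15 had a negative log2 fold change (49.1% of all genes). Their median was −0.26, the same to 2 decimals as that of the 20S core. Psmd14, the deubiquitinase of the lid, had 61.2, 69.6 and 73.1 CPM in controls and 41.4, 54.4 and 53.0 CPM in optimized libraries (−0.46 ± 0.12, edgeR adjusted p = 0.0168). Psmd7, its partner in the lid, had 83.9, 92.4 and 106 CPM against 60.0, 80.1 and 76.2 CPM (−0.39 ± 0.13, edgeR adjusted p = 0.0459). Both subunits were lower in every optimized library. The lid scaffold subunits Psmd3 and Psmd11 also passed. Psmd3 had 118, 115 and 122 CPM against 88.3, 98.6 and 98.5 CPM (−0.32 ± 0.08, edgeR adjusted p = 0.0166). Psmd11 had 99.7, 94.5 and 99.3 CPM against 81.3, 80.4 and 82.8 CPM (−0.26 ± 0.08, edgeR adjusted p = 0.0258). Psmd11 had the narrowest spread of the 4 among the optimized libraries.

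None of the 6 ATPases Psmc1 to Psmc6, which drive unfolding, passed the test in edgeR at the adjusted threshold. All 6 had negative log2 fold changes (49.1% of all genes), and in 4 of them the optimized libraries lay below the controls (22.5% of all genes). At an unadjusted p-value under 0.05, 3 of the 6 were lower in edgeR (19.8% of all genes). DESeq2 gave an adjusted p-value under the threshold for 3 of the 6, Psmc1, Psmc2 and Psmc3, where 15.7% of all genes were lower. Psmc2 had 99.1, 101 and 112 CPM in controls and 67.3, 87.3 and 91.4 CPM in optimized libraries (−0.34 ± 0.12, edgeR adjusted p = 0.0567), and Psmc4 81.3, 88.1 and 97.8 CPM against 69.0, 90.2 and 87.5 CPM (−0.12 ± 0.12, edgeR adjusted p = 0.519). The large base subunits Psmd1 and Psmd2, which bind ubiquitin carriers, had positive values. Psmd1 had 166, 159 and 173 CPM in controls and 177, 179.6 and 195 CPM in optimized libraries (0.15 ± 0.08, edgeR adjusted p = 0.221), and its groups did not overlap. Psmd2 had a log2 fold change of 0.03 (edgeR adjusted p = 0.831). Psmd1 shares 252 exonic bases with Htr2b, a serotonin receptor gene on the opposite strand, which had 31, 83 and 69 counts in controls and 1350, 1616 and 1473 in optimized libraries, beside 3744 to 4721 counts of Psmd1. The part of these reads in the value of Psmd1 was not tested. Psmc3 shares 215 exonic bases with Slc39a13 (0.337 times its mean count, log2 fold change 0.36). Psmc5 shares 1269 with Smarcd2 (1.09 times its mean count, log2 fold change −0.27). Both partners lie on the opposite strand, and the part of shared reads was not tested. Of the 45 genes, 10 share exonic bases with a gene of at least 0.1 times their mean count, also Psma4, Psmb4 and Psmg2.

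**Figure D2:**
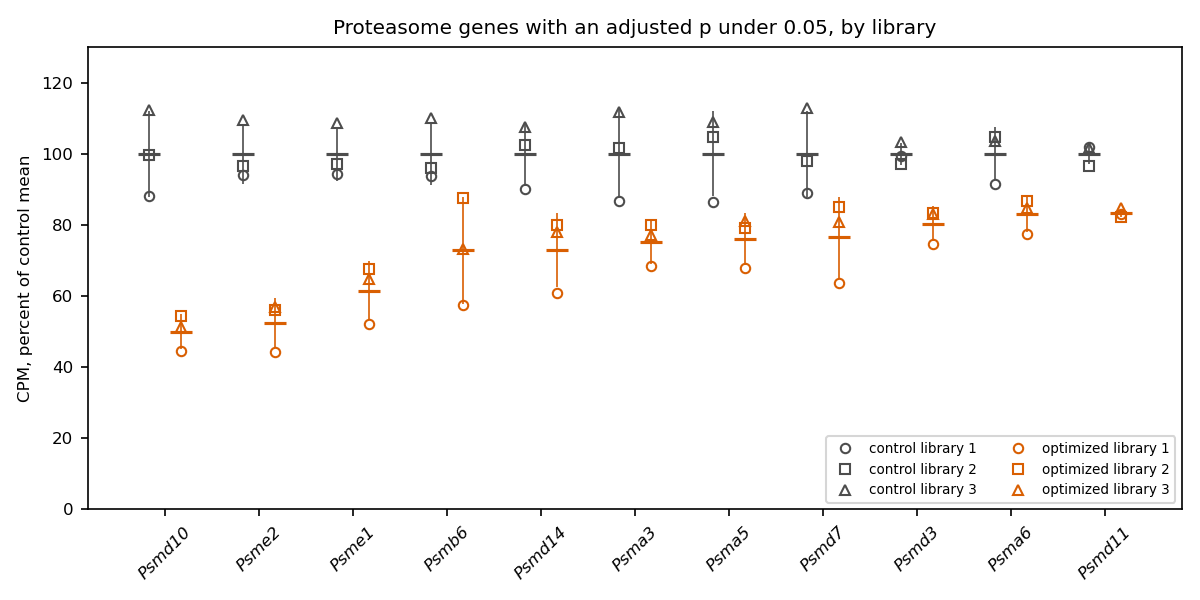
TMM-scaled CPM as percent of the control mean (y axis) for the 11 proteasome genes with an adjusted p-value under 0.05, by library (points), with the group mean (line) and SD (bar, n = 3). No optimized library reaches the lowest control library in any of the 11 genes. The genes were selected by the test on these same libraries, and 22.5% of all genes tested separate in this direction. Optimized library 1 (circles) is the lowest optimized library in all but Psmd11.

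The 4 chaperones of 20S assembly with a Psm symbol, Psmg1 to Psmg4, had few counts. They gave 0 calls in edgeR, also at an unadjusted p-value under 0.05, and in DESeq2. Pomp, another chaperone of the 20S core, is given below with the other pathway genes. Psmg3 had 10.7, 10.4 and 10.4 CPM in controls and 6.53, 10.5 and 7.50 CPM in optimized libraries (−0.36 ± 0.17, edgeR adjusted p = 0.157). Psmg1 had 7.04, 6.81 and 9.55 CPM against 7.43, 9.28 and 7.84 CPM (0.07 ± 0.17, edgeR adjusted p = 0.811). The groups overlapped in all 4 genes of this role.

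The libraries did not contribute equally. As the plot of called genes by library shows, optimized library 1 gave low values, and it was the lowest of its group in 40 of the 44 genes, while control library 1 was the lowest control in 33. The median deviation of the 44 genes from the control mean was −0.47 in optimized library 1, against −0.11 and −0.17 in libraries 2 and 3, and it was −0.09, −0.02 and 0.10 in the control libraries. Without optimized library 1, the median log2 fold change was −0.17 and 32 of 44 were negative, with 11 lower and 1 higher, Psma1. Of the 11 genes called in all 6 libraries, 8, 4 and 3 remained without control library 1, 2 or 3, and 10, 10 and 6 without optimized library 1, 2 or 3. The share of the 44 genes called lower, beside that of all genes, was 18.2% against 11.5%, 9.09% against 11.02% and 6.82% against 11.4% without control library 1, 2 or 3, so it was under the share of all genes without control library 2 or 3. Without optimized library 1, 2 or 3 it was 25% against 17.7%, 43.2% against 15.3% and 15.9% against 11.9%. Psmd10, Psme1 and Psme2 kept an adjusted p-value under 0.05 in each of these fits, and the 8 ring and lid subunits each lost it in 2 or more. Over 13952 genes, the difference between optimized library 1 and the other two also moved with annotated exon length (Spearman's rho 0.33, a description across genes of one library), and over the 44 genes the rho was 0.36. With the length trend taken out of each library, 19 of the 44 were lower and 0 higher in edgeR, where 18.1% of all genes were lower.

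Levels of different genes were compared per transcript length, as the deposited FPKM. The 31 constitutive subunits of the 20S and 19S particles summed to 2229, 2369 and 2412 FPKM in controls and 1614, 1932 and 1975 FPKM in optimized libraries, which was 0.524%, 0.536% and 0.522% of all FPKM against 0.404%, 0.412% and 0.433%. The sums did not overlap between the groups. The mean FPKM per subunit of the 20S core was 1.31, 1.37 and 1.37 times that of the 19S particle in controls and 1.26, 1.41 and 1.32 times in optimized libraries, so this ratio overlapped.

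**Figure D3:**
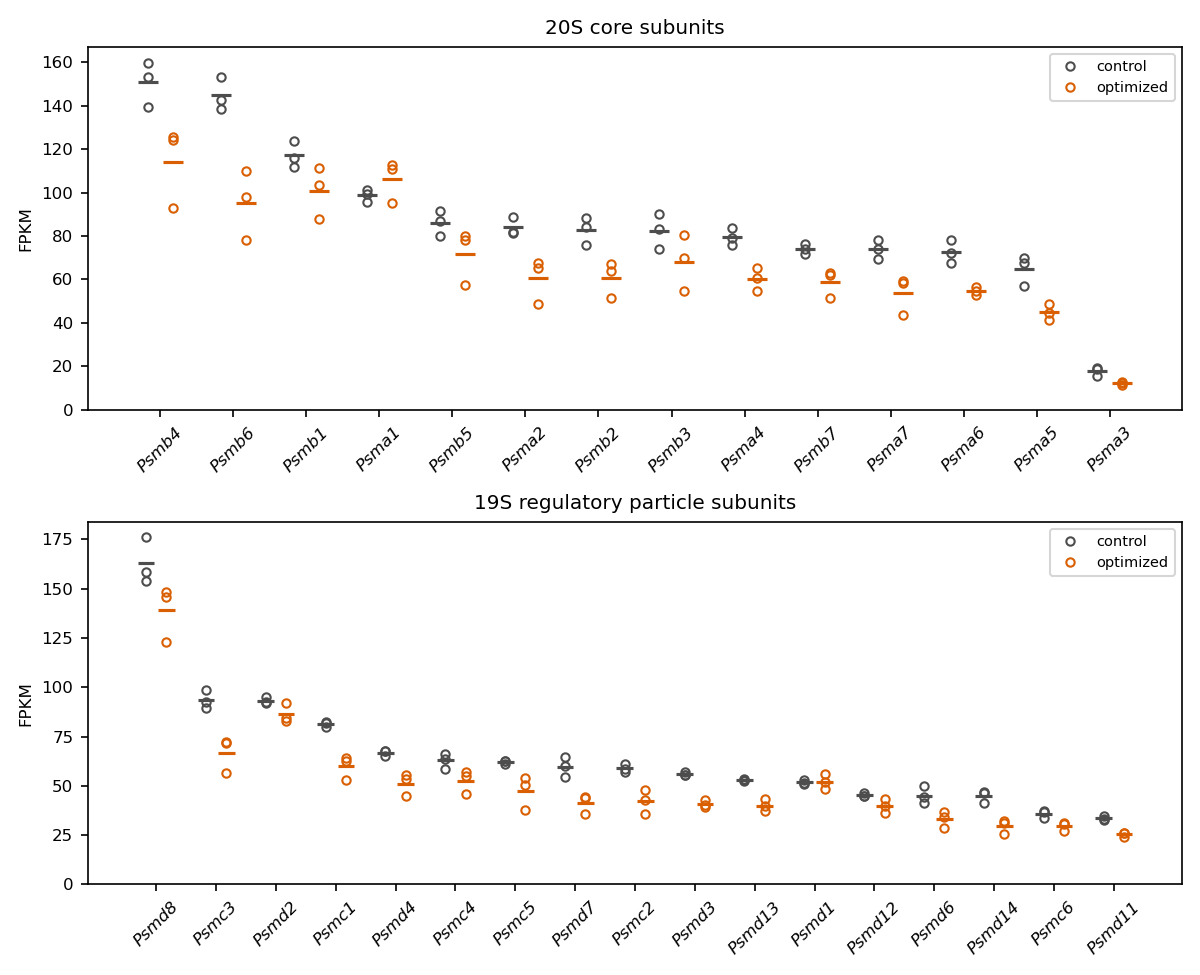
FPKM (y axis) of the 14 subunits of the 20S core (top) and 17 subunits of the 19S particle (bottom) in each library (points), with group means (lines), ordered by the control mean. Psmb4 (control mean 151 FPKM) and Psmd8 (163 FPKM) stand highest and Psma3 (17.8 FPKM) and Psmd11 (33.5 FPKM) lowest, in both groups.

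Subunits that occur in equal number in the complex differed several-fold in their transcript level, as the plot of FPKM levels shows. In the 20S core, Psmb4 was highest with 151 ± 10.3 FPKM (SD, n = 3) in controls and 114 ± 18.5 FPKM in optimized cultures, and Psmb6 followed with 145 ± 7.47 FPKM, within 1 SD of Psmb4. Psmb5, Psma2, Psmb2 and Psmb3 lay between 82.4 and 86.2 FPKM in controls, a range narrower than the smallest SD among them (4.13 FPKM, Psma2). Psma3 was lowest with 17.8 ± 1.79 FPKM in controls and 12.2 ± 0.638 FPKM in optimized cultures. The length behind the FPKM enters here, since 1 FPKM of Psma3 stood for 72.9 counts in control library 1, against 16.2 to 35.2 counts for the other 13 genes. Psma3 also has near-identical copies, among them the pseudogene Gm13835 (100% identity over 665 aligned bases), and how its reads were divided is uncertain. In the 19S particle, Psmd8, a lid subunit, was highest with 163 ± 11.8 FPKM in controls and 139 ± 13.7 FPKM in optimized cultures. Psmc3 and Psmd2 followed with 93.6 and 93.1 FPKM in controls. Psmd11 was lowest with 33.5 ± 1.14 FPKM against 25.3 ± 1.32 FPKM. Here too the length enters, since 1 FPKM of Psmd11 stood for 65.6 counts in control library 1, against 33.4 for Psmd8, and by counts Psmd11 had a control mean of 97.8 CPM. The order of the subunits was similar in both groups, with a Spearman's rho of the group means of 0.96 over 14 genes and 0.94 over 17, given as a description.

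The changes were also set beside the upstream ETS letters. The 12 genes that hold the site had a median log2 fold change of −0.23, from −0.34 to 0.07, with 2 lower. The 24 tested genes with a window and no site had a median of −0.26, from −1.0 to 0.25, with 7 lower. Of all genes tested, 15.2% were lower. These values are a description, with no test.

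Other genes of the pathway were read from the same edgeR fit. Of 32 genes chosen, Paaf1 was absent under this symbol from the deposited counts. Nfe2l3 was not tested, with 40 counts in optimized library 1 and 1 to 7 elsewhere. Of the other 30, 8 were lower and 2 higher in the optimized cultures, beside 15.2% and 14.7% of all genes.

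Among other proteasome parts and partners, 4 of 9 were lower, beside 15.2% of all genes. Pomp, the chaperone that completes the 20S core, had 122, 135 and 149.9 CPM in controls and 75.0, 115 and 105 CPM in optimized libraries (−0.47 ± 0.15, edgeR adjusted p = 0.0405). Adrm1, a ubiquitin receptor of the 19S particle, had 91.2, 87.2 and 95.5 CPM against 56.1, 81.4 and 69.6 CPM (−0.40 ± 0.13, edgeR adjusted p = 0.0376). Both were lower in every optimized library than in any control library. Txnl1, a thioredoxin-like protein bound to the 19S particle, and Usp14, its reversible deubiquitinase, had log2 fold changes of −0.39 (edgeR adjusted p = 0.0148) and −0.27 (edgeR adjusted p = 0.023). Pomp shares 1728 exonic bases with Slc46a3 on the opposite strand, which had 0.321 times its mean count and a log2 fold change of −0.65. Usp14 shares 2503 exonic bases with Thoc1 (0.533 times its mean count, log2 fold change 0.14). Txnl1 shares 253 with Wdr7 (1.12 times its mean count, log2 fold change 0.04), and both partners lie on the opposite strand. Pomp, Adrm1 and Usp14 lost the call without control library 1, 2 or 3 or optimized library 3 (adjusted p up to 0.132, 0.111 and 0.0879), and Txnl1 without control library 2 or 3 or optimized library 3 (up to 0.0731).

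The transcription factor NFE2L1 induces proteasome genes when the proteasome is short of capacity, after NGLY1 and the protease DDI2 have processed it. Nfe2l1 had 212, 187 and 205 CPM in controls and 148, 147 and 149 CPM in optimized libraries (−0.44 ± 0.08, edgeR adjusted p = 0.00235). Its relative Nfe2l2, which drives the antioxidant response, had 314, 330.4 and 336 CPM against 163, 163 and 174 CPM (−0.97 ± 0.08, edgeR adjusted p = 1.21e-05). Ngly1 had 25.3, 23.0 and 24.7 CPM against 14.9, 15.6 and 14.9 CPM (−0.68 ± 0.10, edgeR adjusted p = 0.000402). All 3 were lower in every optimized library, with little spread among the optimized libraries, and kept the call in all 17 alternative settings. Ngly1 shares 332 exonic bases with Oxsm on the opposite strand, which had 0.801 times its mean count. Oxsm had a log2 fold change of −0.38 (edgeR adjusted p = 0.0204), and the part of shared reads in Ngly1 was not tested. Ddi2 moved the other way, with 72.5, 65.2 and 61.5 CPM in controls and 124, 85.4 and 100.2 CPM in optimized libraries (0.64 ± 0.13, edgeR adjusted p = 0.00518), and passed the threshold in counts but not in limma on FPKM (adjusted p up to 0.0603). Nploc4, a cofactor of the segregase VCP, was lower (−0.32 ± 0.09, edgeR adjusted p = 0.0272), and lost the call without control library 1 or 3 or optimized library 2 or 3 (adjusted p up to 0.106).

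**Figure D4:**
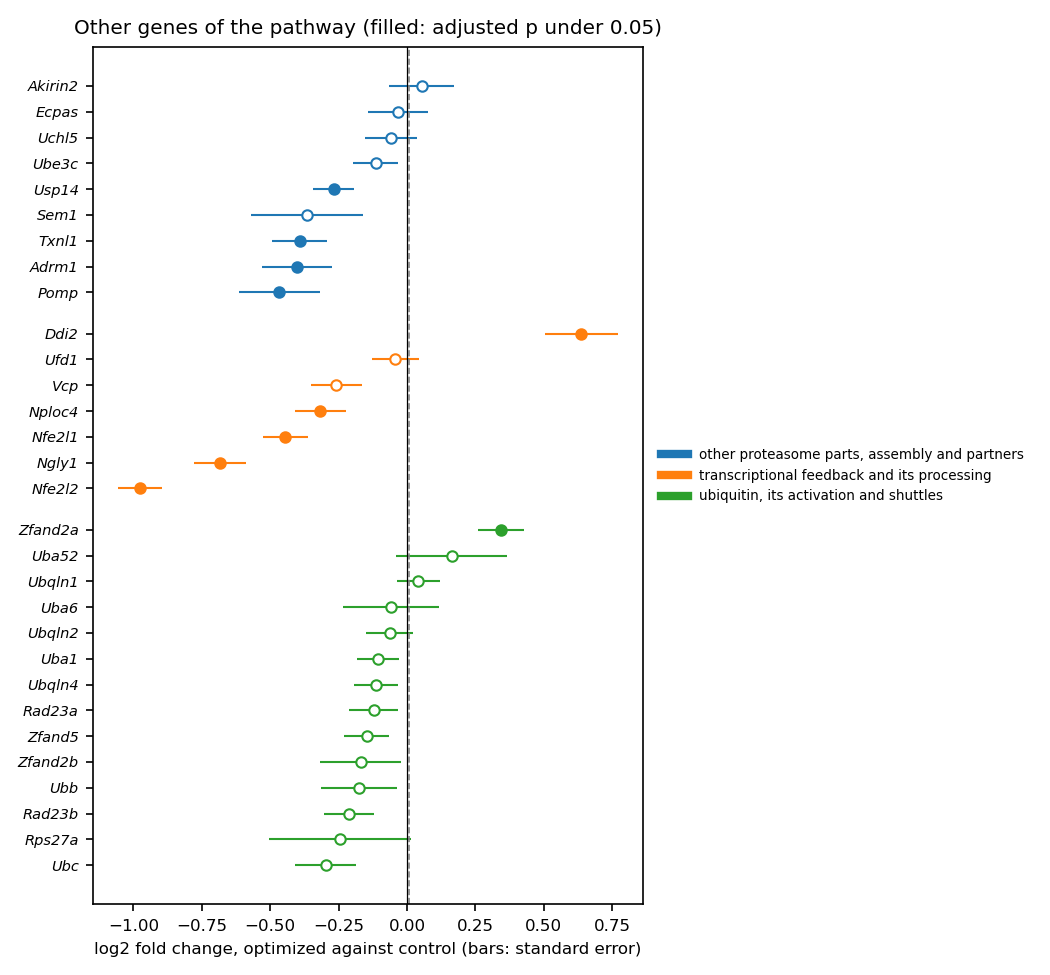
Log2 fold change between optimized and control cultures (x axis) for the 30 other pathway genes tested, grouped and coloured by role, with the standard error as a bar and filled points for an adjusted p-value under 0.05. Nfe2l2 (−0.97) and Ngly1 (−0.68) lie farthest to the left and Ddi2 (0.64) farthest to the right. The ubiquitin genes and shuttles lie nearer to zero, with a median of −0.12.

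Among the 14 genes of ubiquitin, its activation and its shuttles, 0 were lower and 1 was higher in edgeR (15.2% and 14.7% of all genes). The plot of the other pathway genes shows this. At an unadjusted p-value under 0.05, 2 were lower in edgeR (19.8% of all genes), and DESeq2 gave 1 lower at the adjusted threshold (15.7% of all genes). The gene that was higher was Zfand2a, a stress-induced proteasome-associated protein, with 92.6, 86.8 and 89.7 CPM in controls and 105, 121 and 116 CPM in optimized libraries (0.34 ± 0.08, edgeR adjusted p = 0.0116). Its call was lost without control library 2 or 3 or optimized library 3, with library size alone as the scaling and in limma on FPKM (adjusted p up to 0.0807).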

How the data were processed

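Paired-end reads had been aligned by HISAT2 against mm39 (the GRCm39 assembly) and assigned to genes by featureCounts, per the labels and the methods. Versions, annotation and strand setting are not given in the sources used here. The authors deposited raw counts per gene and FPKM for 6 libraries, described as biological replicates. Groups came from the labels. The members and lists were chosen with earlier results of these data known.

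The deposited counts were compared between groups using edgeR 4.0.16 under R 4.3.3 (filterByExpr, TMM, glmQLFit, glmQLFTest), in 1 fit over all genes, and the steps were tested on simulated data. The SE is the log2 fold change divided by the root of F. The common coefficient of variation between replicates was 0.128, and genes with few counts are less precise. All members could be named, and pathway genes past 0.05. Nfe2l3, Psme2b and genes with overlapping exons were named after their values were seen. Exons are those of GENCODE M39. The RefSeq windows are of GRCm38.p6 and were placed on GRCm39 by exact match.

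Alternatives were DESeq2 1.42.0, scaling by relative log expression or by library size alone, no filter or 10 counts in every library, a replicate block, each library left out in turn, and limma 3.58.1 with 1 or 0.1 added to the FPKM before taking log2, or with a mean FPKM of at least 1. Removal of a length trend and the sum of Psme2 and Psme2b were added after seeing the data.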

Additional observations from a re-analysis of the deposited data

How the results depend on the processing

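Psmd10, Psme1 and Psme2, and Nfe2l1, Nfe2l2, Ngly1, Psmb9 and Psmb10, were lower past the threshold in all 17 alternatives. The 11 lower genes became 25 with library size alone, where 21.7% of all genes were lower. In limma on FPKM they became 27 in each of its 3 settings, where 22.3% to 25.6% of all genes were lower. The setting with a mean FPKM of at least 1 tested 43 of the 44. With the length trend removed 19 were lower, where 18.1% of all genes were lower. Library size alone and limma moved the median of all genes to −0.12 and to between −0.13 and −0.09, and the share of lower among all calls from 50.9% to 67.7% and to between 68.7% and 71.6%. Against that shift the median of the 44 genes was lower by 0.27 with library size alone, and by 0.26 to 0.31 in limma, beside 0.27 as reported. Leaving out 1 library gave 3 to 19 lower and 0 to 1 higher, where 11.02% to 17.7% of all genes were lower, and a median between −0.31 and −0.17. Of the other pathway genes, 3 to 9 were lower and 1 to 3 higher with 1 library left out. In these fits 11.02% to 17.7% of all genes were lower, and 1603 to 2591 genes in all were higher. With library size alone 1 was higher, where 1513 of 14618 genes were higher. In limma 0 were higher, where 1176 to 1486 genes in all were higher. At a mean FPKM of at least 1 limma gave 13 lower, where 25.6% of all genes were lower. The log2 difference of the Psmb9 to Psmb6 ratio was −0.45 with FPKM + 1. The cause of these differences was not tested. Same-numbered control and optimized libraries did not deviate together in every pair (correlations 0.27, −0.01 and 0.18), and not every library correlated best with its own number. The replicate block gave 22 of the 44 lower, where 17.3% of all genes were lower. None of the 11 called genes changed sign, while 7 of the others did so without optimized library 1 and 1 or 2 without each other library, with library size alone and in limma, all with a reported log2 fold change of at most 0.13 in size. Depth limits Psma8, Psmg1, Psmg2, Psmg3 and Psmg4, and 3 libraries against 3 limit the exact test of the ratios to p = 0.1 or more.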
